A study of Mus musculus with 9 samples.

Results

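Matrix metalloproteases (Mmp genes), ADAM and ADAMTS proteases and the TIMP inhibitors were measured in primary brown fat cultures treated with a signalling lipid or with an inhibitor of the enzyme that makes it. Members were all genes of the array annotation whose symbol is Mmp, Timp or Adam followed by a digit, or starts with Adamts, read from probe sets with 1 gene symbol and, where a gene had several, from the brightest. That gave 83 of the 19858 annotated genes. Of these, 52 had a mean above the intensity filter, set at 5.59 log2 units (the 40th percentile over the whole array), and 31 lay under it.

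The cultures were grown from interscapular brown fat, the heat-producing depot, of 5-week-old C57BL/6 males. Floating mature fat cells were removed, the remaining cells, rich in precursors, were differentiated with insulin, and dishes were harvested at about day 9, so a dish holds fat cells beside cells that did not become fat cells. Control cultures (subjects 1 to 3) received the vehicle DMSO. A second group (subjects 4 to 6) received 2.5 µM HA155, an inhibitor of autotaxin, which is the secreted enzyme that produces lysophosphatidic acid (LPA), and the third (subjects 7 to 9) received 5 µM 1-oleoyl LPA itself. The design text places the compounds during differentiation and the sample labels at day 9 of culture; how long the cells were exposed is therefore unclear. Titles number the 9 samples as subjects 1 to 9 and the design text speaks of 3 cultures per condition. Whether a subject is 1 mouse is not stated, so p-values measure the spread between these samples, which may be technical.

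Matrix metalloproteases are zinc enzymes that cut collagens, proteoglycans and other proteins around cells, and most are made as inactive precursors. TIMPs are small secreted proteins that block their active site. ADAMs are membrane-anchored relatives, several of which release growth factors, cytokines and receptors from the cell surface, and ADAMTS proteins are secreted relatives that trim proteoglycans and procollagens. Remodelling of the pericellular matrix by these enzymes, Mmp14 foremost, is known to accompany the conversion of precursors into fat cells.

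Values are given below as log2 of the deposited intensity, n = 3 arrays per group, and differences as log2 units with their standard error (SE). A gene was called where the adjusted p of limma's moderated test over 13335 genes was below 0.05. Median intensities lay between 70.7 and 72.8 for the 9 arrays, and arrays of 1 group correlated with r of 0.989 to 0.994 across probe sets. Precision is limited by the number of arrays, and the median SE of a member's difference between LPA and control was 0.07. Levels of different genes are not comparable, since each probe set binds with its own strength.

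With LPA, matrix protease genes and their inhibitors rose side by side. Of the 52 tested members 22 rose and 3 fell against control, that is 42.3% and 5.77%, where 12.2% of all tested genes rose and 10.8% fell (23.0% called in either direction). The median difference was 0.19 over the tested members and 0.01 over all tested genes. In 28 members the LPA and control arrays did not overlap, 53.8% against 33.1% of all tested genes. With HA155 no member was called, against 1.03% of all tested genes (0.607% rose and 0.427% fell), and 12 members (23.1%) had no overlap with control, against 16.8%. The filter uses the mean over all arrays, so a gene could pass it through the group in which it was high; among the tested members 3 had a group mean under the filter level.

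**Figure D1:**
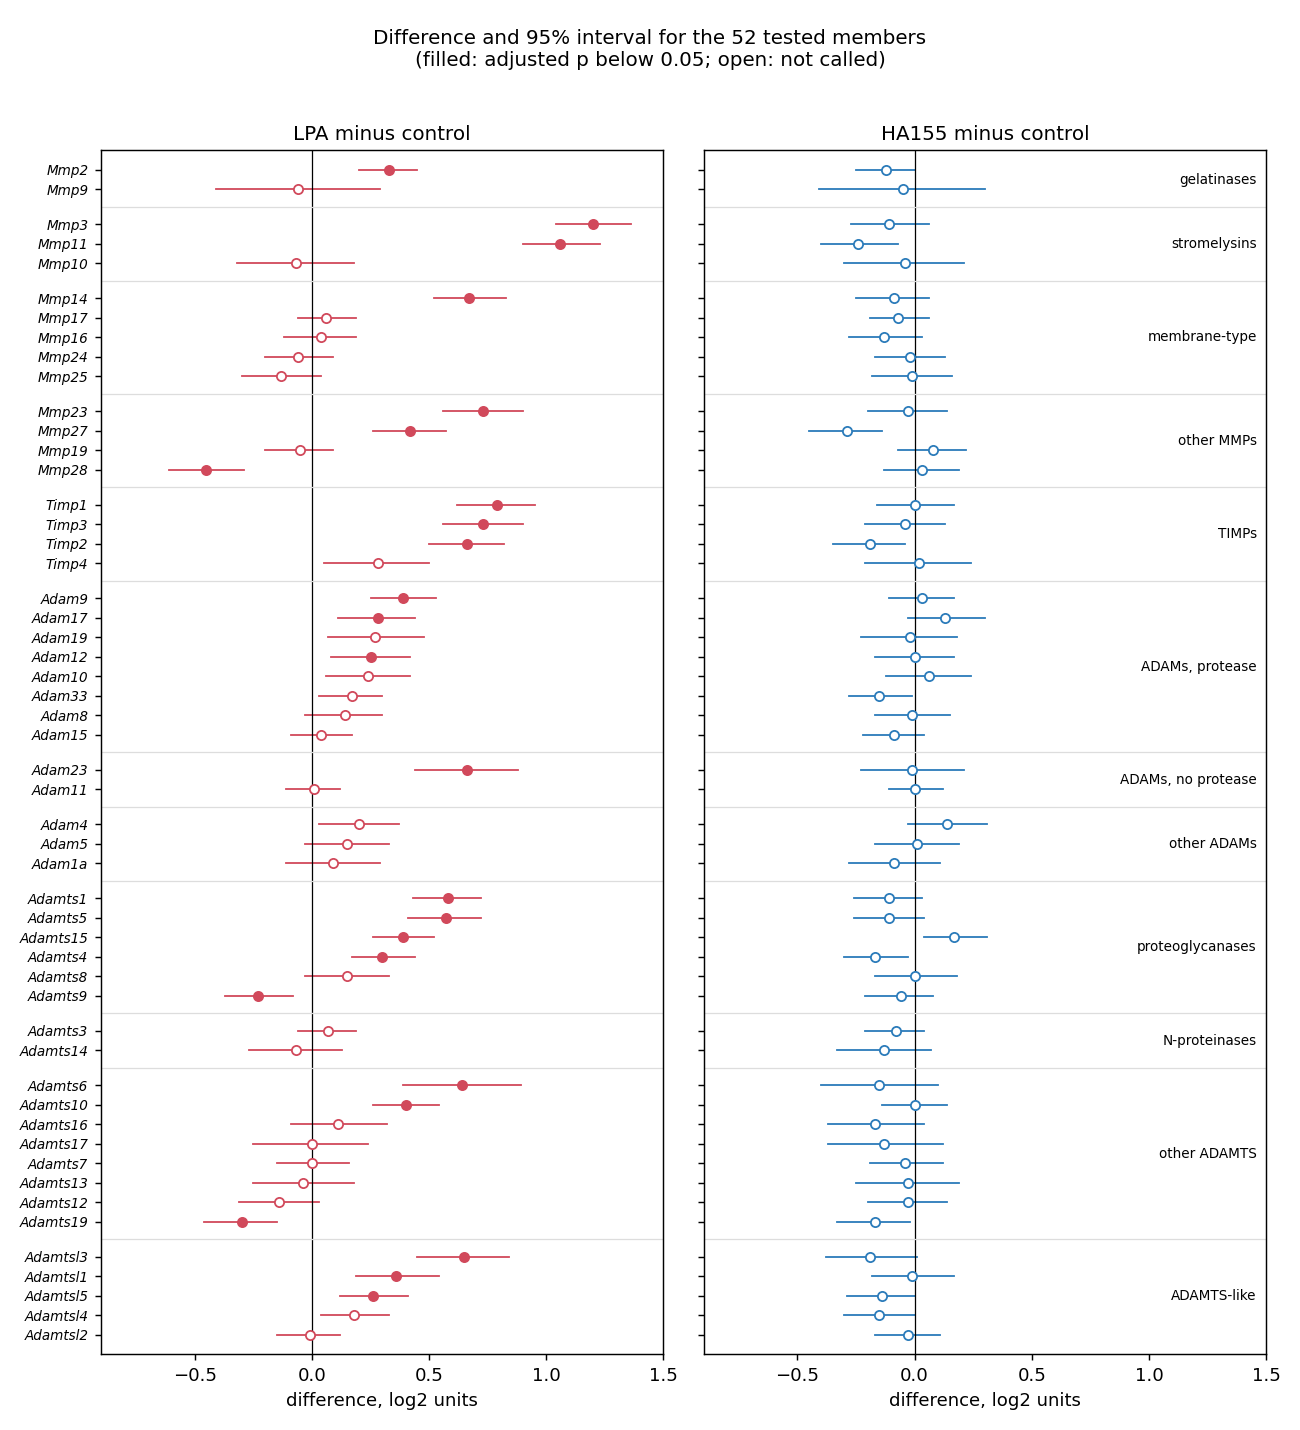
Difference from control in log2 units (horizontal axis) for each of the 52 tested genes, grouped by role from top to bottom, for LPA (left, red) and HA155 (right, blue); lines are 95% intervals and filled points have a limma adjusted p below 0.05. With LPA 22 points are filled to the right of 0 and 3 to its left, while no point is filled for HA155.

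The stromelysins Mmp3 and Mmp11 rose most. Mmp3, which cleaves proteoglycans and activates other metalloproteases, read 8.65, 8.65 and 8.67 in control, 8.44, 8.66 and 8.55 with HA155 and 9.79, 9.98 and 9.80 with LPA. The LPA arrays lay more than a full log2 unit above every other array. The difference from control was 1.20 (SE 0.07, limma adjusted p = 1.29e-06), a 2.30-fold rise. Mmp11 (stromelysin-3, known from stroma that is being remodelled) read 8.60, 8.60 and 8.48 in control, 8.31, 8.33 and 8.34 with HA155 and 9.47, 9.65 and 9.75 with LPA. All 3 groups were separate. Mmp11 rose by 1.06 with LPA (SE 0.08, limma adjusted p = 3.64e-06), or 2.09-fold. Its difference with HA155 was -0.24 (95% interval -0.40 to -0.07), which did not pass over all genes (limma adjusted p = 0.314). Mmp10, the other stromelysin, stayed at the filter level with group means of 5.63, 5.59 and 5.56 in control, HA155 and LPA.

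Mmp3 belongs to a run of 10 neighbouring Mmp genes on chromosome 9, in the RefSeq order Mmp13, Mmp12, Mmp1b, Mmp3, Mmp1a, Mmp10, Mmp8, Mmp27, Mmp20 and Mmp7. Only Mmp3, Mmp10 and Mmp27 of this run passed the intensity filter; the other 7 lay under it. Promoter windows (250 bases before to 50 after the annotated start, RefSeq, GRCm38.p6) of 4 of them are shown because neighbours with the same landmarks had different values with LPA. The windows, all on the plus strand, are chr9:7445572-7445871, chr9:7272264-7272563, chr9:7502092-7502391 and chr9:7571146-7571445. Capitals mark TGAGTCA on either strand, the letters bound by AP-1 (read as TGACTCA where it lies on the other strand), and TATAAA on either strand, the TATA box.
Mmp3: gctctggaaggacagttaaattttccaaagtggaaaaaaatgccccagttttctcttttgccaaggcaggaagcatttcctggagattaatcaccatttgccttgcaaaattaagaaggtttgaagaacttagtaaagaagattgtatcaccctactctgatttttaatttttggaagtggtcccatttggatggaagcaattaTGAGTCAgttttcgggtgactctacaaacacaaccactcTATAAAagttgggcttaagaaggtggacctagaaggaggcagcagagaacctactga
Mmp13: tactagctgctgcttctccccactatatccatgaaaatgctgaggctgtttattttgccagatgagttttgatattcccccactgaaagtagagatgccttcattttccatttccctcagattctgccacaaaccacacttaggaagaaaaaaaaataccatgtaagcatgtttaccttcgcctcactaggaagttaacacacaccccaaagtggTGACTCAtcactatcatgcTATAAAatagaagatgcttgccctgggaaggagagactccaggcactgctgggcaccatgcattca
Mmp10: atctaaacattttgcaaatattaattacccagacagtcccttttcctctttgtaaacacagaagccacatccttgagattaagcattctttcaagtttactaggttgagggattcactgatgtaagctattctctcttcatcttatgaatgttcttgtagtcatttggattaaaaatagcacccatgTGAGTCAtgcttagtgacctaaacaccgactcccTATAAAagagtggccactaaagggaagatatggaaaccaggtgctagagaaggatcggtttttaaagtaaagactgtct
Mmp27: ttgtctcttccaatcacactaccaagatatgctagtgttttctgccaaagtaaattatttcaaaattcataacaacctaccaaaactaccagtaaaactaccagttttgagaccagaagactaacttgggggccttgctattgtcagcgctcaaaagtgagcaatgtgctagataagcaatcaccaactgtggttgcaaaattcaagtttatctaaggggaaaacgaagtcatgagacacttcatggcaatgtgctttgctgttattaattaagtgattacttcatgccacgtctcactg

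The AP-1 letters start 46 bases before the annotated start in Mmp3, 35 bases before it in Mmp13 and 63 bases before it in Mmp10. Each is followed by TATAAA with no overlap, which starts 7, 16 and 29 bases before the annotated start. All these distances depend on the annotated starts, which were not tested. Neither run of letters stands in the Mmp27 window. Of the 10 clustered genes 7 held the AP-1 letters in a window, and all of these also held TATAAA. For comparison, 5.20% of all 32851 promoter windows held TGAGTCA and 13.6% held TATAAA.

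Mmp27 rose from 6.33, 6.21 and 6.20 in control to 6.68, 6.68 and 6.63 with LPA, by 0.42 (SE 0.07, limma adjusted p = 0.00124). With HA155 its arrays read 6.06, 5.82 and 5.99, all under control, a difference of -0.29 (95% interval -0.45 to -0.14) that did not pass over all genes (limma adjusted p = 0.108). Mmp13, the main collagenase of mouse tissues, read 5.26 in all 3 control arrays, 5.26, 4.84 and 4.89 with HA155 and 5.82, 5.78 and 5.76 with LPA. Its LPA arrays alone lay above the filter level. In a fit without the filter, where 13.7% of genes were called, Mmp13 was 0.53 higher with LPA (limma adjusted p = 0.00375). Identical control values understate its spread, and its size near background is uncertain. None of the other 6 cluster genes under the filter was called in that fit (limma adjusted p = 0.269 or more); among them were Mmp8, the neutrophil collagenase, and Mmp7, matrilysin. AP-1 letters were present in windows of Mmp3 and of Mmp13, which was called only in the fit without the filter. They were also present in windows of 5 cluster genes that were not called. Of these, Mmp12, Mmp1b, Mmp1a and Mmp7 lay under the filter and Mmp10 at its level, so a difference could have been missed. Whether the letters bear on the differences with LPA was not tested.

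**Figure D2:**
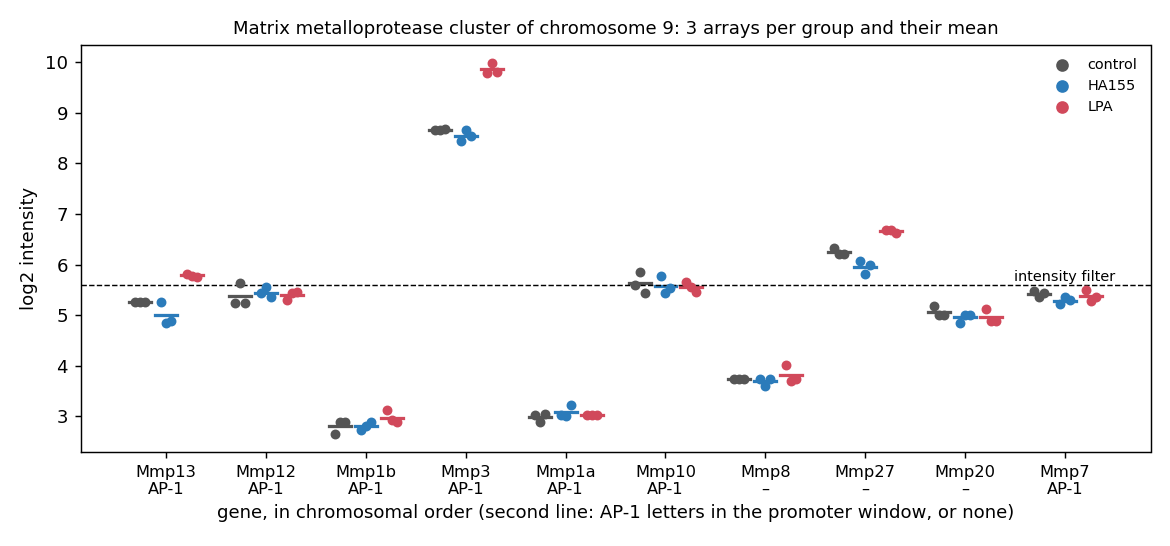
Log2 intensity (vertical axis) of the 10 Mmp genes of chromosome 9 in chromosomal order, with 3 arrays per group as points and their mean as a bar; the second line of each label says whether the AP-1 letters stand in a promoter window, and the dashed line is the intensity filter at 5.59. Mmp3, Mmp27 and Mmp13 have LPA points above both other groups, and levels are not comparable between genes.

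Matched promoter windows were available for 52 members, the 10 cluster genes included, and 13 of these rose with LPA, among them Mmp3 and Mmp27. The other members that rose had no matched window and were not scanned. The AP-1 letters stood in 10 of 57 member windows (17.5%), those of the 7 clustered genes among them, and in 5.20% of all windows. They stood in 1 of 14 windows of genes that rose, that of Mmp3, and in 2 of 20 windows of tested genes that did not rise. GGAATG, the letters bound by TEAD factors, stood on either strand in 4 of 57 member windows (7.02%) and in 14.7% of all windows. The CArG box of serum response factor was found on either strand in 0 of 57 member windows and in 1.63% of all. These are matches of letters only, and no match says only that the letters are not in that window.

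The pericellular trio of Mmp14, Mmp2 and Timp2 rose together with LPA. Mmp14 is a membrane-anchored collagenase that, with Timp2 as an adaptor, activates the precursor of Mmp2, a gelatinase. Mmp14 read 11.46, 11.33 and 11.28 in control, 11.27, 11.37 and 11.16 with HA155 and 12, 12.05 and 12.04 with LPA. Control and HA155 arrays overlapped and LPA arrays lay above both. The rise was 0.67 (SE 0.07, limma adjusted p = 4.95e-05), or 1.59-fold. Mmp2 read 12.58, 12.54 and 12.52 in control, 12.41, 12.48 and 12.38 with HA155 and 12.83, 12.86 and 12.93 with LPA, so that the 3 groups did not overlap. Its rise with LPA was smaller, 0.33 (SE 0.06, limma adjusted p = 0.00146), and its difference with HA155 was -0.12 (95% interval -0.25 to 0.00, limma adjusted p = 0.623). Mmp9, the other gelatinase, read between 5.76 and 6.39 over all arrays and differed by -0.06 with LPA (SE 0.16, limma adjusted p = 0.821). Of the membrane-type enzymes other than Mmp14, the 4 tested (Mmp16, Mmp17, Mmp24 and Mmp25) were not called and lay between -0.13 and 0.06. Mmp15, of the same group, had no usable probe set and was not measured.

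Among the remaining matrix metalloproteases, changes ran in both directions. Mmp23, a membrane-anchored enzyme without the usual hemopexin domain, read 9.12, 9.00 and 8.95 in control, 8.86, 9.11 and 9.02 with HA155 and 9.70, 9.74 and 9.83 with LPA. It rose by 0.73 with LPA (SE 0.08, limma adjusted p = 5.06e-05), and HA155 and control overlapped. Mmp28 (epilysin) was the Mmp gene that fell, by 0.45 (SE 0.07, limma adjusted p = 0.000933), from a control mean of 7.86 to 7.41. Mmp19 differed by -0.05 with LPA and was not called. In all, 6 of 14 tested Mmp genes rose and 1 fell.

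Of the inhibitors, 3 of 4 TIMP genes rose with LPA. Timp1, a broad secreted inhibitor, read 10.61, 10.44 and 10.60 in control, 10.48, 10.64 and 10.54 with HA155 and 11.40, 11.22 and 11.40 with LPA. LPA arrays stood clear of both other groups, which overlapped. Timp1 rose by 0.79 (SE 0.08, limma adjusted p = 2.72e-05), or 1.73-fold. Timp2 read 11.12, 10.98 and 11.08 in control, 10.84, 10.97 and 10.79 with HA155 and 11.62, 11.79 and 11.75 with LPA. It rose by 0.66 with LPA (SE 0.07, limma adjusted p = 5.97e-05), close to the 0.67 of Mmp14, and lay in all HA155 arrays under control, by -0.19 (95% interval -0.35 to -0.04), without passing over all genes (limma adjusted p = 0.435). Timp3, which binds to the matrix and also inhibits ADAM17 and aggrecan-cleaving ADAMTS enzymes, read 10.13, 9.98 and 10.19 in control, 10.00, 10.18 and 9.99 with HA155 and 10.75, 10.84 and 10.89 with LPA. The rise of Timp3 was 0.73 (SE 0.08, limma adjusted p = 5.39e-05), with overlapping control and HA155 arrays. Timp4 read 6.17, 6.11 and 6.05 in control, 6.17, 6.04 and 6.17 with HA155 and 6.35, 6.17 and 6.64 with LPA. Its LPA arrays were spread widely and reached down to the highest control and HA155 values, and the difference of 0.28 from control did not pass (SE 0.10, limma adjusted p = 0.0774). By RefSeq, Timp1, Timp3 and Timp4 overlap Syn1, Syn3 and Syn2; which strand their probe sets read was not looked at here.

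**Figure D3:**
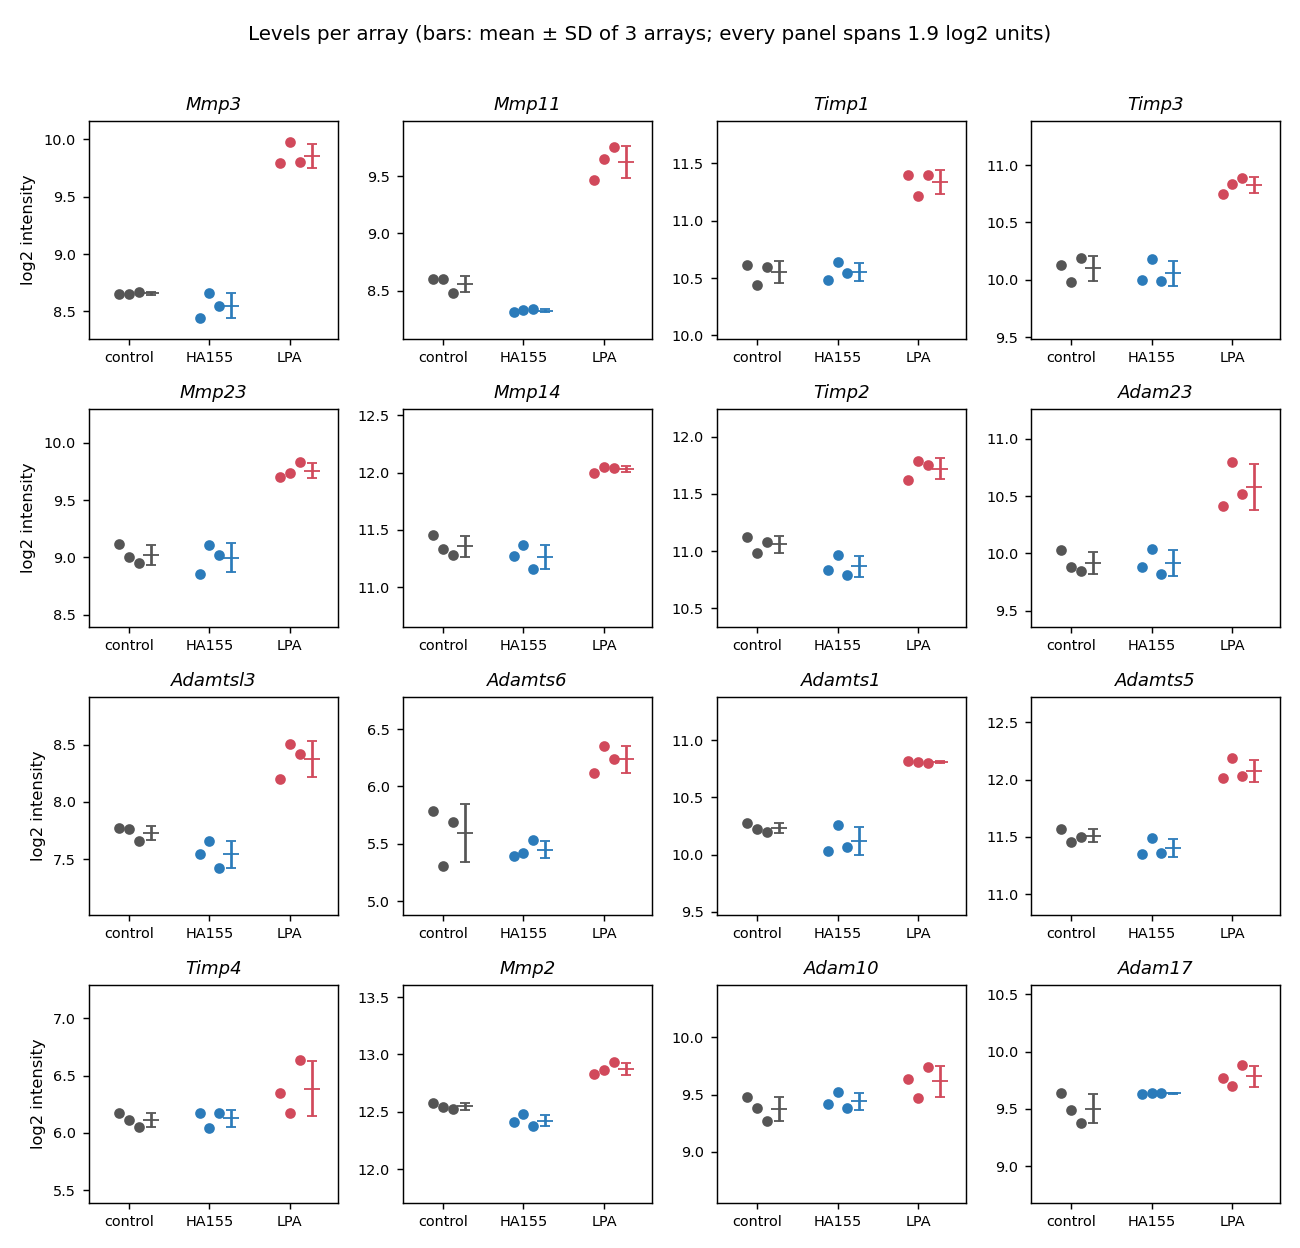
Log2 intensity per array (vertical axis; each panel spans the same range) in control, HA155 and LPA for the 12 called genes of largest difference between LPA and control and for Timp4, Mmp2, Adam10 and Adam17; bars are mean ± SD of 3 arrays. In the first 12 panels and in that of Mmp2 the LPA points lie above all others, whereas in those of Timp4 and Adam10 the LPA points reach into the range of other groups.

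Among the ADAMs with a protease motif, LPA raised Adam9, Adam12 and Adam17. Adam17, the enzyme that releases TNF and ligands of the EGF receptor, read 9.64, 9.49 and 9.38 in control, 9.63, 9.64 and 9.64 with HA155 and 9.77, 9.70 and 9.88 with LPA. The LPA arrays lay above all others, and the HA155 arrays at the upper end of control. It rose by 0.28 (SE 0.08, limma adjusted p = 0.0209), a call lost in 4 of 19 alternative fits (limma adjusted p up to 0.0842), among them those without control 2, control 3 or LPA array 9. Adam10, the main sheddase of Notch receptors and cadherins, read 9.48, 9.38 and 9.27 in control, 9.42, 9.52 and 9.38 with HA155 and 9.64, 9.47 and 9.74 with LPA. The groups overlapped, and its difference of 0.24 from control did not pass (SE 0.08, limma adjusted p = 0.0590). Adam9, a sheddase of broad expression, rose by 0.39 (SE 0.06, limma adjusted p = 0.000916) and kept its call in every alternative fit. Adam12 (meltrin alpha), which is expressed in fat and muscle precursors, rose by 0.25 (limma adjusted p = 0.0383), but lost the call in 12 of 19 alternative fits (limma adjusted p up to 0.134), including those without any 1 of the control or HA155 arrays or without LPA array 8 or 9. Of the 8 tested ADAMs of body tissues that carry a protease motif these 3 rose and none fell.

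Adam23, a neuronal adhesion protein without protease activity, changed more than any tested ADAM with a protease motif. It read 10.03, 9.88 and 9.85 in control, 9.88, 10.04 and 9.82 with HA155 and 10.41, 10.80 and 10.52 with LPA. LPA array 8 was highest, and the other two LPA arrays still lay above both groups. The rise was 0.66 (SE 0.10, limma adjusted p = 0.000643). Adam11, of the same kind, differed by 0.01. Of the 22 remaining ADAM genes, many of them known from testis and the reproductive tract, 19 lay under the intensity filter and the 3 tested were not called.

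Of 6 tested ADAMTS proteoglycanases, which are secreted, 4 rose with LPA, 1 fell and 1 was not called. Adamts1 and Adamts5, neighbours on chromosome 16, cleave versican and aggrecan. Adamts1 read 10.28, 10.22 and 10.20 in control, 10.03, 10.26 and 10.07 with HA155 and 10.82, 10.81 and 10.80 with LPA. Adamts5 read 11.57, 11.46 and 11.50 in control, 11.35, 11.49 and 11.36 with HA155 and 12.01, 12.19 and 12.03 with LPA. For both genes the LPA arrays lay above all others while HA155 and control overlapped. The pair rose by near-equal amounts, Adamts1 by 0.58 (SE 0.07, limma adjusted p = 0.000100) and Adamts5 by 0.57 (SE 0.07, limma adjusted p = 0.000139). Of another neighbouring pair on chromosome 9, Adamts15 rose by 0.39 and Adamts8 differed by 0.15 without a call. Adamts4 rose by 0.30 (limma adjusted p = 0.00437). Adamts9 fell by 0.23 (SE 0.07, limma adjusted p = 0.0288). The fall of Adamts9 lost its call in 4 of 19 alternative fits (limma adjusted p up to 0.119), among them those without control 1, control 2 or LPA array 7. The 5 other Adamts9 probe sets gave -0.25 to -0.20 against control, none of them called. For LPA against HA155 the probe set used gave -0.17 and was not called (limma adjusted p = 0.0922). In that comparison the others gave -0.34 to -0.23, with limma adjusted p from 0.0238 to 0.0931.

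The other ADAMTS genes were mixed. Adamts6 read 5.79, 5.31 and 5.69 in control, 5.39, 5.42 and 5.53 with HA155 and 6.12, 6.35 and 6.24 with LPA. Its LPA arrays lay above all others, a difference from control of 0.64 (SE 0.11, limma adjusted p = 0.00172). Its control and HA155 means of 5.60 and 5.45 lay at or under the filter level, so the size is uncertain. Adamts10, its close relative, which binds fibrillin-1, rose by 0.40 (limma adjusted p = 0.000904), and Adamts19 fell by 0.30 (limma adjusted p = 0.00823), with 1 identical value in its 3 HA155 arrays. Of the procollagen N-proteinases, Adamts3 differed by 0.07 and Adamts14 by -0.07, and neither was called. Adamts2, of the same group, had no usable probe set and was not measured, so the group is covered only in part.

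ADAMTS-like proteins share the matrix-binding part of ADAMTS enzymes and lack their protease domain, and 3 of the 5 tested rose. Adamtsl3 read 7.77, 7.76 and 7.66 in control, 7.55, 7.66 and 7.42 with HA155 and 8.20, 8.51 and 8.42 with LPA. Its LPA arrays were separate from the rest. The rise was 0.65 (SE 0.09, limma adjusted p = 0.000285). Adamtsl1 rose by 0.36 and Adamtsl5 by 0.26, the latter losing its call without control 2 (limma adjusted p = 0.0664). Adamtsl4 and Adamtsl2 measured 0.18 and -0.01 and were not called.

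In none of these families did HA155 change a member by limma at an adjusted p below 0.05, and none of those tested was called in any of 19 alternative fits. At an unadjusted p below 0.05 there were 8 of 52 members, 7 of them lower, against 8.11% of all tested genes (3.79% lower). The 7 were Adam33, Adamts4, Adamtsl4, Adamts19, Mmp27, Mmp11 and Timp2, and the 1 that was higher was Adamts15. The median difference was -0.04 over tested members and 0.00 over all tested genes. For all 52 tested members the 95% interval of the HA155 difference lay between -0.5 and 0.5, with a half-width of 0.11 to 0.36. The intervals together reached from -0.45 (Mmp27) to 0.31 (Adamts15 and Adam4). Mmp3 for example lay between -0.27 and 0.06, Timp1 between -0.16 and 0.17 and Mmp14 between -0.25 and 0.06.

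With LPA set directly against HA155, 25 of 52 members were called higher with LPA and 1 was called lower. Of all tested genes 13.7% were called higher and 12.4% lower (26.1% called). Arrays of the 2 treatments did not overlap in 34 members (65.4%), against 38.7% of all tested genes. Mmp3 and Mmp11 were each 1.30 higher (SE 0.07 and 0.08, limma adjusted p = 4.32e-07 and 4.80e-07). Timp2 differed by 0.85 (limma adjusted p = 6.60e-06), Adamtsl3 by 0.83, Adamts6 by 0.79, Timp1 by 0.78 and Mmp27 by 0.71. Mmp28 was 0.48 lower (limma adjusted p = 0.000496). Members called here but not against control were Adam19 (0.30), Adam33 (0.31), Adamtsl4 (0.33) and Adamts16 (0.28). Conversely, Adam17 (0.14, limma adjusted p = 0.207), Adamts19 (-0.13, limma adjusted p = 0.208) and Adamts9 (-0.17) were called against control but not here. For Adam17 the HA155 difference from control was 0.13, and for Adamts19 it was -0.17, each in the direction of LPA. Adam19 lost its call in 11 of 19 alternative fits (limma adjusted p up to 0.138), among them those without control 2 or 3, any 1 HA155 array or LPA array 8 or 9. Adamts16 lost it in 14 of 18 (limma adjusted p up to 0.150), among them those without control 1 or 3, any 1 HA155 array or LPA array 7 or 8. Adam12 lost it in 8 (limma adjusted p up to 0.128), including those without HA155 array 4 or 6 or LPA array 8 or 9, and Adamts15 in 3, those without any 1 HA155 array (limma adjusted p up to 0.0773). Both comparisons with LPA use the same LPA arrays, so their agreement is not independent.

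Genes that surround these enzymes were measured in lists chosen for their roles: 114 activators, other inhibitors, other matrix proteases, binding partners and substrates, of which 97 were tested. With LPA 45 rose and 8 fell, or 54.6% called against 23.0% of all tested genes. By list the share called ran from 33.3% in the plasminogen system to 66.7%. The 66.7% was reached by other activators and inhibitors and by ADAMTS substrates and cofactors. HA155 changed 3 of the 97 (3.09% against 1.03%), with 2 higher and 1 lower.

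In the plasminogen system, whose product plasmin activates several metalloprotease precursors, 2 of 6 tested genes rose with LPA. These were the tissue and urokinase plasminogen activators, Plat by 0.68 (SE 0.08) and Plau by 0.48 (SE 0.05). With only 6 tested genes, the share of 33.3% called is not set apart from the 23.0% of all tested genes. With HA155 Plau measured -0.25 (95% interval -0.36 to -0.14, limma adjusted p = 0.0532) and Plat -0.27 (limma adjusted p = 0.224). Plau passed with HA155 in 7 of 19 alternative fits, among them that without LPA array 8 (limma adjusted p over all 19 from 0.0108 to 0.229). Among other activators and inhibitors 11 of 18 rose and 1 fell. The rises were led by the thrombospondins Thbs1 (0.94) and Thbs2 (0.81), and the fall was in Lcn2 (-1.49), a lipocalin that binds Mmp9. Reck, a membrane-bound inhibitor of Mmp14, Mmp2 and Mmp9, was among those that rose, by 0.47 (limma adjusted p = 0.000216); it was picked after its value was seen.

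Of 16 tested matrix proteases of other classes 7 rose with LPA and 1 fell, the lysosomal Ctsd by 0.23, which was also picked after its value was seen. Cathepsin K (Ctsk), a collagen-cutting cysteine protease, rose by 0.82, the IGF-binding-protein protease Pappa by 0.81, and Bmp1, which removes the C-propeptides of procollagens, by 0.57. Mme (neprilysin) rose in both treatments, by 0.25 with LPA and 0.38 with HA155 (limma adjusted p = 0.0294 and 0.0392). Mme lost its HA155 call in 9 of 19 alternative fits (limma adjusted p up to 0.183), including those without any 1 control or HA155 array or without LPA array 7. It lost its LPA call in 4, among them those without control 2, control 3 or LPA array 9 (limma adjusted p up to 0.112).

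Of the 97 genes, Tspan15 and Dlk1 were called in opposite directions with the 2 treatments, each set against the same control arrays. Tspan15, a partner of ADAM proteases and a tetraspanin that steers Adam10 towards cadherin substrates, had means of 6.53 in control, 7.24 with HA155 and 5.96 with LPA. It rose by 0.71 with HA155 (SE 0.09, limma adjusted p = 0.00364) and fell by 0.56 with LPA (limma adjusted p = 0.000795), and both calls held in the 18 of 19 alternative fits that tested it. Tspan14, another tetraspanin partner of Adam10, fell by 0.55 with LPA (by 0.35 without LPA array 8, limma adjusted p between 0.000999 and 0.0419 over all alternative fits) and measured -0.09 with HA155. Sh3pxd2a, the scaffold Tks5 that binds several ADAMs at invasive protrusions, fell by 0.54 with LPA. The related Sh3pxd2b of the same list rose by 0.52 (limma adjusted p = 0.00136) and was picked after its value was seen. In all, 2 of the 13 tested partners of ADAM proteases rose and 4 fell with LPA. These are 15.4% and 30.8%, against 12.2% and 10.8% of all tested genes.

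Of 27 tested genes whose products ADAMs release from the surface 13 rose and 1 fell with LPA. Csf1, a growth factor for macrophages, rose by 0.83, the TNF receptor Tnfrsf1b by 0.67 and N-cadherin, Cdh2, by 0.59. Dlk1, a preadipocyte protein whose soluble form is cut off by Adam17, rose by 0.25 with LPA (limma adjusted p = 0.0339) and fell by 0.82 with HA155 (SE 0.08, limma adjusted p = 0.000609). The LPA call of Dlk1 was lost in 7 of 19 alternative fits (limma adjusted p up to 0.152), among them those without any 1 control array or LPA array 8 or 9, and the HA155 call in none. Of 18 tested ADAMTS substrates and cofactors 11 rose and 1 fell with LPA. Fibromodulin (Fmod) rose by 1.10, the cartilage matrix protein Comp by 0.88 and the versican gene Vcan, a substrate of Adamts1 and Adamts5, by 0.78. Comp measured 0.60 with HA155 (limma adjusted p = 0.0694), a difference called in 3 of 19 alternative fits, 1 of them without LPA array 8 (limma adjusted p over all 19 from 0.00523 to 0.299).

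**Figure D4:**
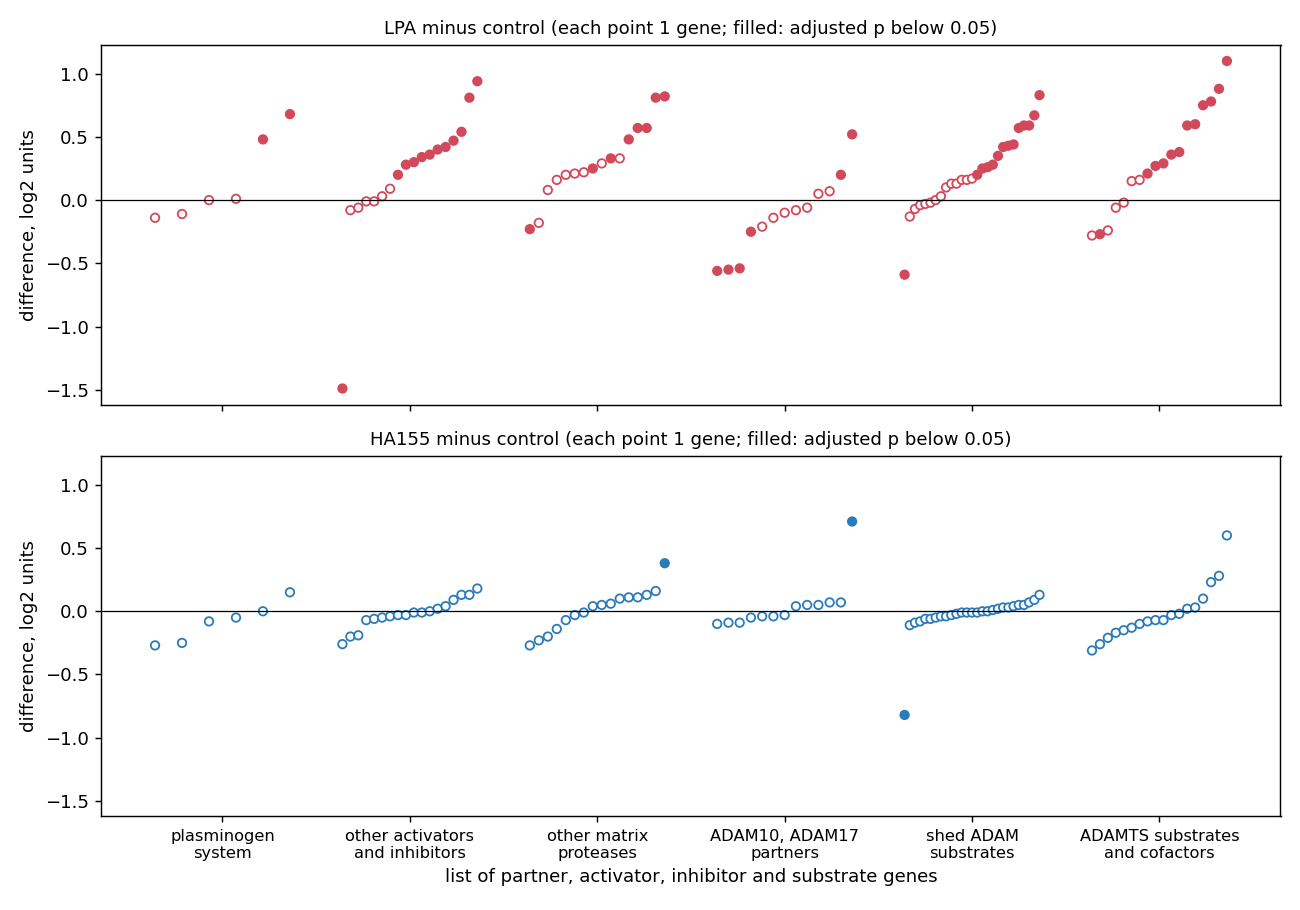
Difference from control in log2 units (vertical axis) for each tested gene of the 6 lists (horizontal axis), sorted by size within a list, for LPA (top) and HA155 (bottom); filled points have a limma adjusted p below 0.05. With LPA filled points lie mostly above 0, apart from the partner list where 4 fell and 2 rose, and with HA155 the filled points are those of Mme, Tspan15 and Dlk1.

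Markers of some cell types in the dish also differed with LPA, while those of others were not called. For comparison, 12.2% of all tested genes rose and 10.8% fell with LPA. All 12 adipocyte markers fell with LPA, by a median of 1.32, and their summed intensity ran from 44656 to 46143 in control, 47659 to 49669 with HA155 and 24493 to 25354 with LPA. Such sums weigh the brightest probe sets most, for example Lpl (control mean 13.64) here and Col1a1 (13.39) in the fibroblast list. They are therefore not amounts of a cell type. Of 11 tested preadipocyte and fibroblast markers, 7 rose and 1 fell with LPA, with sums of 35272 to 37191, 32024 to 35239 and 43588 to 48689 in control, HA155 and LPA. Dlk1, Dpp4, Col1a1, Col3a1 and Lum of this list were also counted among the surrounding genes, so the 2 counts are not independent. In these cultures fewer cells of a type and less RNA per cell cannot be told apart, and the part of cell composition in the protease differences was not tested. Skeletal muscle markers rose in 8 of 13 tested (summed 1366 to 1481 in control, 1427 to 1543 with HA155 and 1774 to 2133 with LPA), and of 9 tested smooth muscle and pericyte markers 3 rose and 2 fell (3076 to 3374, 3436 to 3980 and 3944 to 4112). No macrophage marker of 8 tested was called with LPA, with sums of 912 to 1046 in control, 1150 to 1301 with HA155 and 929 to 1248 with LPA, and Adgre1, Ptprc, Itgam, Mrc1, Fcgr1 and Mpeg1 were under the filter. Of the neutrophil markers 8 of 10 were under the filter and neither of the other two was called (309 to 341, 311 to 323 and 318 to 336). The endothelial list had 1 rise and 1 fall among 8 tested, 12.5% each and so near the shares over all tested genes. Pecam1, Kdr, Emcn and Erg of this list were under the filter (sums 886 to 946, 832 to 900 and 892 to 914). Neither the 4 mesothelial (393 to 418, 381 to 413 and 375 to 442) nor the 5 Schwann-cell markers tested (3167 to 3514, 3480 to 3504 and 3125 to 3587) were called with LPA. With HA155 2 of 12 adipocyte markers rose, Cidec by 0.65 and Cd36 by 0.31, as did 1 of 13 skeletal muscle markers. Dlk1 of the fibroblast list and 1 of 9 smooth muscle and pericyte markers fell, and the other lists had no call. Over all tested genes 0.607% rose and 0.427% fell with HA155.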

How the data were processed

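RNA of 9 cultures was labelled by a standard Affymetrix protocol, per the labels' protocols. The authors deposited, for every array, a linear intensity of each probe set; RMA is the tool in the submitters' processing notes, with a version not given in the sources used here. RMA equalises the arrays' distributions, which removes any global shift, and compresses changes of dim probe sets. No detection calls were used.

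Log2 of the intensity was taken without an offset. Of 35432 probe sets 21706 had 1 gene symbol, 1605 had several and 12121 were unlisted; the annotation can be old, and 83 of 83 members matched a RefSeq gene by Entrez identifier. The members came from 107 probe sets; 2 more shared with other symbols were not used. Limma 3.58.1 in R 4.3.3 (lmFit, eBayes) was fitted to all 13335 genes above the filter over the 9 arrays and 3 groups together (residual degrees of freedom 6), two-sided, with Benjamini-Hochberg adjustment over all genes within a comparison. The fit was tested on simulated data. With 3 arrays against 3 the smallest p of an exact test is 0.1, and the model across genes was used. No pair of arrays was identical (0 pairs); 3 tested members, Adam11, Adamts19 and Adam5, had 1 identical value throughout a group, which understates their spread.

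Members, lists and alternatives were chosen with earlier results of these data known. Every called member is named. Array values are given for the 12 largest called differences with LPA, the TIMPs, Mmp2, Mmp14, Adam10 and Adam17. Outside that rule they are also given for Mmp27 and Mmp13 of the chromosome 9 run. Of each list, the 3 largest called differences with LPA and all called with HA155 are named. Members not called, and Mmp12, Mmp1a, Mmp1b and Mmp20, were named for their role or place. The labels name no batch, and treatment cannot be told apart from any batch that ran with it. Alternatives changed the filter, offset, probe-set rule, scaling, samples and variance model, or left out 1 array.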

Additional observations from a re-analysis of the deposited data

How the results depend on the processing

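Over 19 alternatives, 9 of them leaving out 1 array, no member reversed its direction together with a call. Of 25 members called for LPA against control 21 kept the call in every alternative that tested them, and of 26 for LPA against HA155, 22 did. The number called for LPA against control was 21 to 26 without 1 array, 22 with only the compared groups and 27 after a further quantile normalization; for LPA against HA155 it was 22 to 25 without 1 array. For HA155 against control it was 0 throughout. Among the 97 surrounding genes the count for LPA against control was 42 to 54 and for LPA against HA155 45 to 53 without 1 array. For HA155 against control these surrounding genes gave 3, and 2 to 5 without 1 array (5 without LPA array 8), 5 with only the compared groups and 10 with array weights; the cause was not tested. Timp4, not called, passed for LPA against control with array weights and without LPA array 8. Adam10 did so in 5 alternatives, among them those without control 1 or LPA array 8. Scaling moved the median difference of all genes by less than 0.1 throughout. No paired analysis was possible because the groups share no subject numbers. Members near the filter level, such as Mmp13, Mmp10 and Adamts6, are limited by signal over background.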
